A study of Rattus norvegicus with 22 samples.

Results

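The genes that encode the potassium channels opened by G proteins (GIRK) and by calcium (BK and SK) were followed in RNA from the rat nucleus accumbens (NAc) after ethanol (EtOH) exposure. The set was 9 genes, taken by exact symbol from the 17310 genes listed in the count files, and all 9 were found. It comprises the GIRK subunits Kcnj3, Kcnj5, Kcnj6 and Kcnj9, the BK subunits Kcnma1 and Kcnmb4, and the SK subunits Kcnn1, Kcnn2 and Kcnn3. The rule that picks them uses symbols and no measured value, though earlier results of these data were known when the set was named. The rats were outbred male Wistar animals, 22 in all, whose age the paper does not give. Each library came from the NAc, core and shell together, of 1 rat. In experiment 1, 5 rats could drink 6 v/v % EtOH or water at all times over 8 weeks, and 5 rats were offered water alone. In experiment 2, all 12 rats drank 6 v/v % EtOH beside water, first for 4 weeks and, following a gavage period of 3 weeks, for another 2 weeks. During that period 6 rats received EtOH by gavage (2.5 g/kg, 30 v/v %, 2 times daily) and 6 received water. The paper gives this schedule for the EtOH gavage rats. For the water gavage rats it describes access to EtOH as continuous over the same time, so drinking during the gavage weeks may have differed. Experiment 2 has no group without EtOH, so its comparison concerns the added forced dose and not EtOH against none. All rats were killed within minutes after the EtOH bottles were taken away.

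GIRK channels are inwardly rectifying potassium channels that open when Gi/o-coupled receptors, such as the GABA-B, dopamine D2 and opioid receptors, release G protein βγ subunits. They hold neurons near rest, and EtOH itself can open them through a pocket in the channel protein. BK channels open on depolarisation and calcium together, carry a large current that shortens the action potential, and are also acted on directly by EtOH. SK channels sense calcium through bound calmodulin and produce the medium after-hyperpolarisation that limits firing, and in the NAc core they are known for a role in EtOH seeking.

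Normalised read counts are given as CPM, the reads of a gene scaled to a common library size with the TMM method of edgeR. The count files give no transcript lengths, so levels were compared between rats and not between genes. The reads on genes numbered 2962291 to 5247386 per rat in experiment 1 and 6713617 to 8765472 in experiment 2. All 9 of the 9 markers of striatal projection neurons, the main cell type of the NAc, were detected in every experiment, with a summed level of 2710 to 8466 CPM per rat. The 4 markers of cortical excitatory neurons (Slc17a7, Neurod6, Tbr1 and Cux2), a cell type that the NAc lacks, summed to 183 to 741 CPM in experiment 1 and to 5.43 to 529.8 CPM in experiment 2. In experiment 1 Slc17a7 ran from 79.7 to 593 CPM and Cux2 from 33.8 to 94.8 CPM. Cux2 did not always follow the others there. The water rat with the lowest sum held the lowest Slc17a7, Neurod6 and Tbr1, but not the lowest Cux2. The share of reads outside annotated genes is that of reads the counting gave to no gene, among these and the reads on genes. The strand option of the counting is not known, so this share may also hold reads that lie within genes. The 4 rats of experiment 2 with the highest share of reads outside annotated genes were 2 of each group. They had 52.8% to 58.0%, against at most 51.7% in the other 8. This cut was set after seeing the data, and the gap at it was narrower than the gaps among the 4 rats. Genes were tested where their base mean, the mean normalised count over the rats of an experiment, exceeded the median of all listed genes. That left 8655 genes per experiment, with 8 of the 9 channel genes in experiment 1, Kcnj5 being below, and 7 in experiment 2, Kcnj5 and Kcnn1 being below.

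None of the channel genes passed a false discovery rate (FDR) of 0.05 in either experiment with edgeR's quasi-likelihood test and Benjamini-Hochberg adjustment over all tested genes, and neither did any other gene (0% of those tested). DESeq2 also gave 0 genes in each experiment. At an unadjusted edgeR P-value under 0.05, 1 of 8 channel genes remained in experiment 1, Kcnn1, which was lower with EtOH, where 5.58% of all tested genes (483) passed. In experiment 2, 1 of 7 remained, Kcnn2, which was higher with EtOH gavage, where 1.33% of all tested genes (115) passed. DESeq2 gave 449 and 167 genes at that level. The CPM ranges of the 2 groups overlapped for all 9 channel genes in both experiments, while they did not overlap for 0.843% of tested genes in experiment 1 and 0.0116% in experiment 2. In bulk tissue, fewer cells that express a gene and less RNA per cell cannot be told apart.

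**Figure D1:**
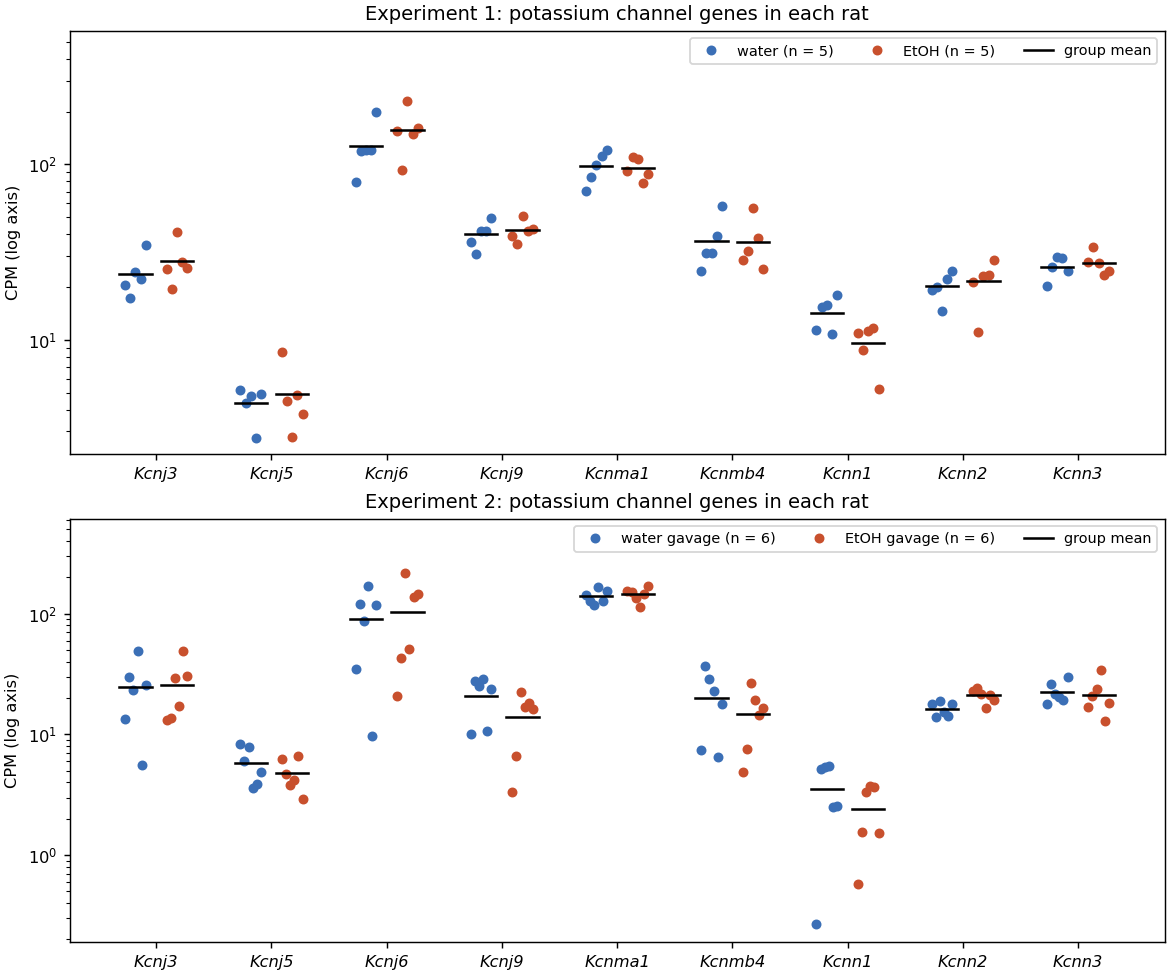
CPM on a log axis for each of the 9 channel genes, with experiment 1 above and experiment 2 below. Each point is 1 rat and each bar is a group mean (n = 5 per group above, n = 6 per group below). Kcnj6 spread from 9.75 to 219 CPM in experiment 2 within overlapping groups, while Kcnma1 and Kcnn2 stayed within narrow ranges there.

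Kcnj6 encodes GIRK2, the subunit that can form channels alone and that most neuronal GIRK channels contain. In experiment 1 it measured 79.0, 119.8, 121, 120.4 and 199 CPM in the water rats, and 155, 92.6, 230.2, 148 and 162 CPM in the EtOH rats. All but 1 of the EtOH rats lay above the water median, yet only 1 lay above the highest water rat. The means were 128 ± 43.8 and 157 ± 49.0 CPM (SD, n = 5 each). The log2 fold change was 0.29 (SE 0.22, 95% interval −0.19 to 0.76, edgeR FDR 0.924), and the exact two-sided permutation test gave p = 0.349. Leaving out the highest water rat, replicate 5, moved it to 0.51 (edgeR FDR 0.423), and leaving out the highest EtOH rat, replicate 3, moved it to 0.11.

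In experiment 2 Kcnj6 ran from 9.75 over a median of 102 to 169 CPM after water gavage, and from 20.9 over 94.4 to 219 CPM after EtOH gavage. Both groups thus held rats at the bottom and at the top, and the 12 rats covered a 22.5-fold range, or 70 to 1720 reads. The log2 fold change was 0.20 (SE 0.63, 95% interval −1.16 to 1.55, edgeR FDR 0.879, exact permutation p = 0.766). That interval includes log2 changes of 1 in either direction, so a change of that size was not detectable against this spread. With the share of reads outside genes as a covariate it was 1.05 (SE 0.48, edgeR FDR 0.999906).

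Kcnj3 encodes GIRK1, which reaches the cell surface only together with another GIRK subunit. Water rats of experiment 1 had 20.6, 17.3, 24.4, 22.1 and 34.7 CPM, and EtOH rats had 25.4, 19.5, 41.4, 27.9 and 25.7 CPM. The groups overlapped over most of their range, with replicate 5 of the water rats and replicate 3 of the EtOH rats at the top, as for Kcnj6. EtOH rats differed from water rats by a log2 fold change of 0.22 (SE 0.21, 95% interval −0.22 to 0.65, edgeR FDR 0.945, exact permutation p = 0.389). In experiment 2 the lowest, median and highest values were 5.57, 24.6 and 49.2 CPM after water gavage and 13.2, 23.4 and 49.5 CPM after EtOH gavage. These medians and maxima lay close together, and the log2 fold change was 0.06 (SE 0.45, 95% interval −0.92 to 1.04, edgeR FDR 0.95, exact permutation p = 0.758). With the share of reads outside genes as a covariate it was 0.64 (SE 0.36, edgeR FDR 0.999906).

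Kcnj9 encodes GIRK3, which joins the other subunits and directs channels to endosomes. Its values in experiment 1 were 36.1, 30.9, 41.7, 41.9 and 49.4 CPM with water and 39.1, 35.3, 50.9, 41.7 and 42.9 CPM with EtOH. The groups covered nearly the same range, and the log2 fold change was 0.07 (SE 0.13, 95% interval −0.21 to 0.34, edgeR FDR 0.983, exact permutation p = 0.603). In the RefSeq annotation of GRCr8, a later rat build than that of the files, Kcnj9 overlaps Igsf8. In that annotation Kcnj6, Kcnma1, Kcnn1, Kcnn2 and Kcnn3 overlap non-coding RNA genes or a pseudogene. Strand was not kept in the libraries of experiment 1, so reads from such overlaps cannot be attributed with certainty there. For experiment 2 the strand option of the counting is not known.

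After water gavage Kcnj9 ran from 10.004 over 24.5 to 28.6 CPM, and after EtOH gavage from 3.33 over 16.6 to 22.5 CPM. Of the 6 EtOH gavage rats, 2 lay below every water gavage rat and none lay above the water gavage median. The log2 fold change was −0.58 (SE 0.42, 95% interval −1.49 to 0.33, edgeR FDR 0.675, exact permutation p = 0.206). It was −0.48 (SE 0.15, unadjusted edgeR P-value of 0.00993, FDR 0.46) without the 4 rats with the highest share of reads outside genes, and 0.00511 (SE 0.21) with that share as a covariate over all 12 rats. The fit without these rats was chosen after seeing the data. Of its 8655 genes, 916 had an unadjusted P-value under 0.05, against 115 in the main fit. The 4 rats had 3.33 to 10.6 CPM of Kcnj9 and the other 8 had 16.2 to 28.6 CPM.

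Kcnj5, which encodes GIRK4, the partner of GIRK1 in the atrium of the heart, was below the filter in both experiments. It was counted at 8 to 25 reads per rat in experiment 1, or 2.77 to 5.15 CPM with water and 2.80 to 8.57 CPM with EtOH. In experiment 2 it was counted at 23 to 62 reads, or 3.59 to 8.27 CPM after water gavage and 2.94 to 6.60 CPM after EtOH gavage. The groups overlapped in both experiments. Without the filter, the log2 fold changes were 0.11 (SE 0.31) and −0.24 (SE 0.30), with exact permutation p = 0.81 and p = 0.357.

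Kcnma1 encodes the pore-forming α subunit of BK channels. Experiment 1 gave 70.8, 84.5, 99.4, 112 and 121 CPM in water rats and 91.9, 110.0, 107, 78.7 and 87.8 CPM in EtOH rats. Every EtOH rat fell within the range of the water rats. Their log2 fold change against water was −0.04 (SE 0.13, 95% interval −0.32 to 0.24, edgeR FDR 0.992, exact permutation p = 0.905). In experiment 2 Kcnma1 ran from 118 over 135 to 166 CPM after water gavage and from 113 over 148 to 169.6 CPM after EtOH gavage. It varied less among rats than most tested genes, and its log2 fold change of 0.06 had the narrowest interval of the set in that experiment, from −0.20 to 0.31 (edgeR FDR 0.819, exact permutation p = 0.623). On a linear scale this interval reached from 0.869 to 1.24 times the water gavage level.

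Kcnmb4 encodes the neuronal β4 subunit, which slows the opening of BK channels and makes them resistant to the scorpion toxin iberiotoxin. In experiment 1 its values were 24.7, 31.2, 31.2, 39.1 and 57.6 CPM with water and 28.5, 31.9, 56.1, 37.9 and 25.4 CPM with EtOH. The highest rat of each group was again water replicate 5 and EtOH replicate 3, and the log2 fold change was −0.03 (SE 0.23, 95% interval −0.53 to 0.46, edgeR FDR 0.995, exact permutation p = 0.873). In experiment 2 it ran from 6.55 over 20.5 to 36.7 CPM after water gavage and from 4.93 over 15.5 to 26.9 CPM after EtOH gavage. Here both groups spread over more than a 5-fold range and overlapped, with a log2 fold change of −0.43 (SE 0.47, 95% interval −1.44 to 0.58, edgeR FDR 0.685, exact permutation p = 0.509). The log2 ratio of Kcnmb4 to Kcnma1 within a rat, which does not depend on library scaling, had a mean of −1.44 ± 0.22 with water and −1.45 ± 0.42 with EtOH (SD, n = 5 each). After gavage it was −3.05 ± 1.06 with water and −3.48 ± 1.01 with EtOH (SD, n = 6 each), so the group difference was smaller than the spread among rats.

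Kcnn1 encodes SK1. It measured 11.3, 15.4, 15.8, 10.7 and 17.9 CPM in the water rats of experiment 1 and 11.0, 8.70, 11.2, 11.6 and 5.25 CPM in the EtOH rats, or 31 to 92 and 18 to 48 reads. All 5 EtOH rats lay below the water mean, and 2 lay below every water rat, while the other 3 overlapped with the 2 lowest water rats. The means were 14.2 ± 3.10 and 9.56 ± 2.66 CPM (SD, n = 5 each). On the log2 scale the fitted change was −0.60, a fold of 0.661 (SE 0.21, 95% interval −1.05 to −0.15, edgeR FDR 0.861). Kcnn1 lay only just above the filter, with a base mean of 44.0 against a median of 43.6, and DESeq2 gave no FDR for it. The unadjusted edgeR P = 0.0128 was the 125th lowest of the 8655 genes, and the exact two-sided permutation test gave p = 0.0635, where the smallest value that 5 against 5 rats allow is 0.00794. Leaving out 1 rat at a time gave log2 fold changes of −0.68 to −0.45 and P-values of 0.00701 to 0.0408. With all 4 groups of both experiments in one fit the unadjusted call was lost (log2 fold change −0.58, SE 0.46, edgeR P-value of 0.217).

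Experiment 2 did not carry Kcnn1 above the filter, since only 2 to 46 reads per rat were assigned to it. It ran from 0.267 over 3.85 to 5.51 CPM after water gavage and from 0.58 over 2.44 to 3.75 CPM after EtOH gavage. All EtOH gavage rats lay within the range of the water gavage rats, because 1 water gavage rat had only 2 reads. Without the filter, the log2 fold change was −0.53 (SE 0.55, 95% interval −1.71 to 0.65, edgeR FDR 0.713, exact permutation p = 0.574).

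Kcnn2 encodes SK2, an abundant SK subunit of forebrain neurons that is also found in dendritic spines. Water rats of experiment 1 had 19.2, 20.0, 14.6, 22.1 and 24.6 CPM, and EtOH rats had 21.3, 11.1, 23.1, 23.5 and 28.6 CPM. The EtOH rats held both the lowest and the highest value. The groups differed by a log2 fold change of 0.10 (SE 0.21, 95% interval −0.35 to 0.54, edgeR FDR 0.985, exact permutation p = 0.841).

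After gavage the 6 water rats had 18.01, 13.9, 18.8, 15.4, 14.3 and 17.8 CPM of Kcnn2, and the 6 EtOH rats had 22.9, 24.4, 21.8, 16.6, 21.4 and 19.3 CPM. EtOH gavage rats lay above every water gavage rat in 5 of 6 cases, and replicate 4 of the EtOH gavage group lay among the water gavage rats. The means were 16.4 ± 2.08 and 21.1 ± 2.77 CPM (SD, n = 6 each), a fold of 1.28. This corresponds to a log2 fold change of 0.36 (SE 0.15, 95% interval 0.04 to 0.68, edgeR FDR 0.675, DESeq2 FDR 0.678). The unadjusted edgeR P = 0.0296 was the 31st lowest of the 8655 genes, and the exact two-sided permutation test gave p = 0.0152, with 0.00216 as the smallest value that 6 against 6 rats allow. Leaving out 1 rat at a time kept the log2 fold change between 0.31 and 0.42, with P-values of 0.0149 to 0.068. The P-value exceeded 0.05 without water gavage replicate 2, 4 or 5 (0.0664, 0.0568 and 0.0529) or EtOH gavage replicate 2 (0.068). It was 0.116 without the 4 rats with the highest share of reads outside genes, and 0.0746 with that share as a covariate (log2 fold change 0.27).

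The markers of neuroblasts, immature neurons (Dcx, Dlx1 and Sox11), had a summed level that moved with Kcnn2 in experiment 2. All 3 were detected. They summed to 125.8 to 258 CPM after water gavage (median 158) and to 141 to 325 CPM after EtOH gavage (median 228), and the Pearson's r of their log2 sum with Kcnn2, after removal of group means, was 0.777 over the 12 rats. That was the highest r with Kcnn2 among all cell type marker lists examined in experiment 2. The same r in experiment 1 was 0.31. In experiment 1, where Kcnn1 was lower with EtOH at the unadjusted level, they summed to 173 to 227 CPM with water and 230 to 328 CPM with EtOH, and the 2 markers of oligodendrocyte precursors (Pdgfra and Cspg4) to 202 to 232 and 234 to 279 CPM. These ranges did not overlap between the groups, as held for 0.843% of single tested genes. Dcx, Dlx1 and Pdgfra are among the genes that the paper lists with its lowest P-values for this comparison. The separation of these sums is therefore not independent of that list. With group means removed, Kcnn1 in experiment 1 had r = 0.53 with the neuroblast sum and −0.24 with the precursor sum. All of these values come from the same libraries and scaling, and the part of such cells in the results for Kcnn2 and Kcnn1 was not tested.

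Kcnn3 encodes SK3, which contributes to the regular pacemaking of dopamine neurons. Its values in experiment 1 were 20.3, 26.0, 29.6, 29.4 and 24.6 CPM with water and 27.8, 34.0, 27.6, 23.5 and 24.8 CPM with EtOH. Only 1 EtOH rat lay above all water rats and the groups overlapped otherwise, with a log2 fold change of 0.08 (SE 0.13, 95% interval −0.20 to 0.37, edgeR FDR 0.983, exact permutation p = 0.54). In experiment 2 it ran from 17.7 over 21.1 to 30.1 CPM after water gavage and from 12.95 over 19.6 to 34.0 CPM after EtOH gavage. The EtOH gavage rats held both extremes, and the log2 fold change was −0.10 (SE 0.23, 95% interval −0.59 to 0.39, edgeR FDR 0.83, exact permutation p = 0.561).

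**Figure D2:**
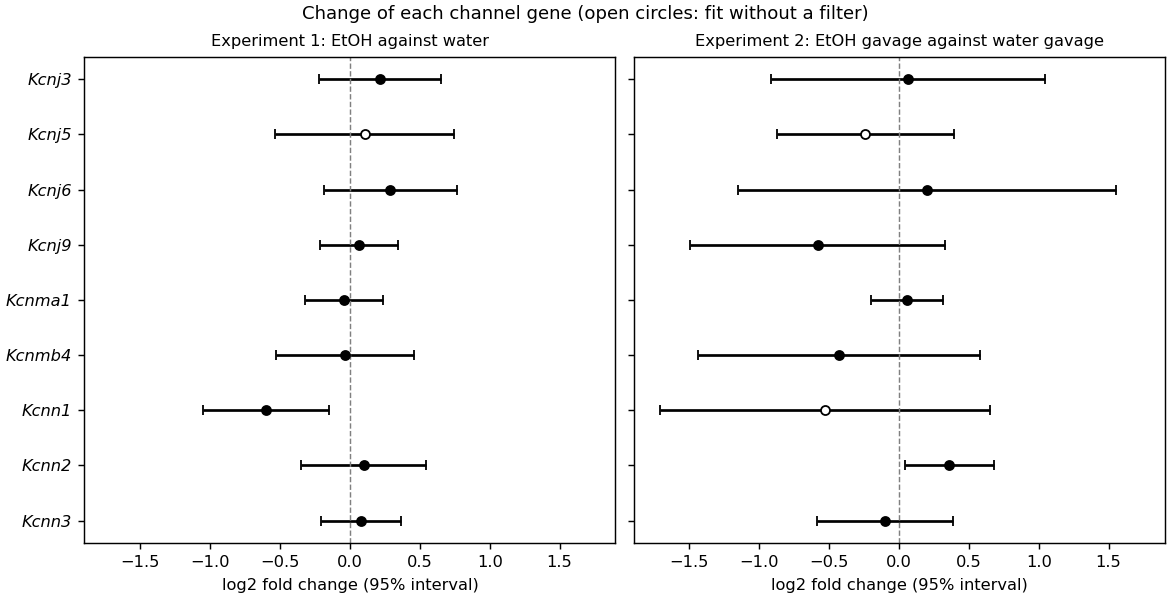
Log2 fold change of each channel gene with its 95% interval, EtOH against water in experiment 1 (left) and EtOH gavage against water gavage in experiment 2 (right). Filled circles are from the fit on tested genes and open circles from the fit without a filter. All intervals include 0 except those of Kcnn1 in experiment 1 (−1.05 to −0.15) and Kcnn2 in experiment 2 (0.04 to 0.68), and neither gene passed the FDR.

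The channel genes differed widely from each other in how much they varied among rats of the same group. The SD of log2 CPM within groups placed Kcnj6 at the 98.2th percentile of all tested genes in experiment 1 and at the 99.2th in experiment 2. There its SD was 1.42, against a median of 0.34 over all tested genes, and Kcnj6 was the most variable among the genes nearest to it in base mean. Kcnj3, Kcnj9 and Kcnmb4 lay at the 93.9th, 92.8th and 94.5th percentile in experiment 2. Kcnma1 and Kcnn2 lay at the other end in that experiment, at the 13.5th and 13.3rd percentile, but at the 83.0th and 96.7th in experiment 1. Kcnn3 was in the middle, at the 69.5th and 59.5th percentile in experiments 1 and 2.

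Kcnj3, Kcnj6, Kcnj9 and Kcnmb4 varied together from rat to rat. Pearson's r of their deviations from group means lay between 0.72 and 0.94 for the 6 pairs in experiment 1 (10 rats) and between 0.74 and 0.93 in experiment 2 (12 rats). Kcnj6 and Kcnj3, for example, had r = 0.85 (Spearman's rho 0.78) in experiment 1 and r = 0.93 (rho 0.87) in experiment 2, and without the 2 rats farthest from the median r was 0.57 and 0.88. For Kcnj3 and Kcnmb4 in experiment 1, r fell from 0.79 to 0.14 without 2 rats, so the relation of that pair rested on those rats. For Kcnj9 and Kcnmb4 in experiment 2, r was 0.93 (rho 0.78), and 0.90 without 2 rats. Kcnj6 with Kcnma1 gave 0.47 and 0.24, with Kcnn2 0.65 and 0.01, with Kcnn3 −0.07 and 0.17, and with Kcnj5 −0.23 and −0.17. Kcnn1 had r = 0.78 to both Kcnj9 and Kcnmb4 in experiment 2 but 0.53 to Kcnj3 and 0.54 to Kcnj6, and between 0.18 and 0.57 to these 4 genes in experiment 1. A first principal component was the axis on which all tested genes together varied most among rats. It held 26.0% of their variance in experiment 1 and 74.0% in experiment 2. With group means removed, its r in experiment 2 was 0.95 for Kcnj9, 0.93 for Kcnmb4, 0.72 for Kcnj6 and 0.63 for Kcnj3. The co-variation there was thus not separated from variation of the tested genes at large. These coefficients describe rats that share library preparation, scaling and the makeup of the dissected tissue, and no test was attached to them.

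**Figure D3:**
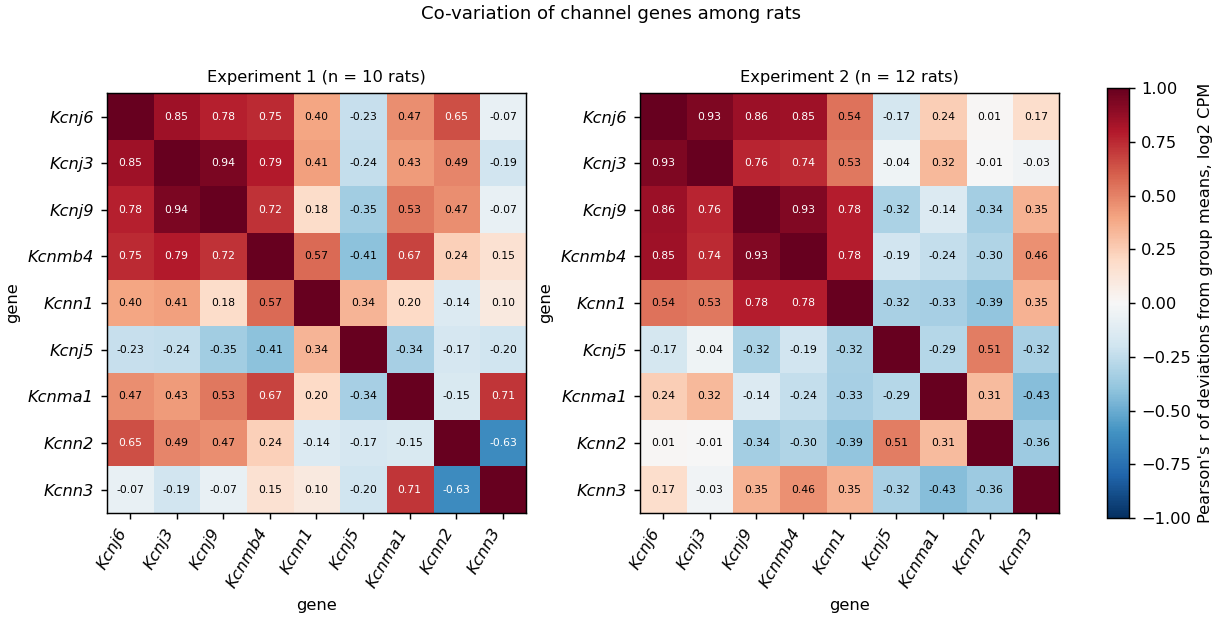
Pearson's r between channel genes, from log2 CPM deviations from group means, in the 10 rats of experiment 1 (left) and the 12 rats of experiment 2 (right). The block of Kcnj6, Kcnj3, Kcnj9 and Kcnmb4 at the upper left has r of at least 0.72 in both experiments, while the highest r of Kcnj5, Kcnma1, Kcnn2 or Kcnn3 with these genes is 0.67 in experiment 1 and 0.46 in experiment 2. Kcnn1 reaches 0.57 and 0.78 with them.

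The cortical excitatory neuron markers followed the same rats. After removal of group means, the log2 of their summed CPM, with 1 added, had r = 0.86 (rho 0.76) with Kcnj6 in experiment 1 and r = 0.96 (rho 0.94) in experiment 2, or 0.63 and 0.92 without the 2 rats farthest from the median. For Kcnj3 r was 0.90 in both experiments, for Kcnj9 it was 0.91 and 0.92, and for Kcnmb4 it was 0.89 and 0.92. Kcnma1 gave 0.72 and 0.11, Kcnn1 0.40 and 0.71, Kcnn2 0.40 and −0.14, Kcnn3 0.13 and 0.23, and Kcnj5 −0.29 and −0.23. In experiment 2 the marker sums were 14.7, 495, 274, 529.8, 5.43 and 209.6 CPM after water gavage and 5.51, 42.4, 379, 84.9, 326 and 376 CPM after EtOH gavage. Low and high rats thus occurred in both groups. In the lowest rats some of the defining markers were at or near 0, with Tbr1 at 0 reads and Slc17a7 at 1 read in at least 1 rat, while Slc17a7 reached 437 CPM in the highest.

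The 5 rats of experiment 2 with the lowest cortical sum, 5.43 to 84.9 CPM, were also the 5 lowest for Kcnj6, at 9.75 to 50.9 CPM against 86.5 to 219 CPM in the other 7. The same 5 were the lowest for Kcnj3, at 5.57 to 17.2 CPM against 23.5 to 49.5 CPM, and 4 of them were among the 5 lowest for Kcnj9, Kcnmb4 and Kcnn1. For Kcnj5, Kcnma1 and Kcnn2 it was 2 of them, and for Kcnn3 3. The channel genes were nonetheless counted where cortical markers were nearly absent, since the water gavage rat with 5.43 CPM of markers still had 9.75 CPM of Kcnj6 (70 reads), 10.6 CPM of Kcnj9 and 128 CPM of Kcnma1. The summed striatal markers went the other way, with r = −0.92 (rho −0.87) to Kcnj6 in experiment 1 and −0.75 (rho −0.53) in experiment 2. For Kcnj3 r was −0.79 and −0.78, and for Kcnj9 it was −0.69 and −0.45. Kcnmb4 had −0.56 (rho −0.41) and −0.37 (rho −0.09), and Kcnn1 had −0.33 and −0.03. The share of reads outside genes moved with the same genes in experiment 2, with r = −0.92 for Kcnj9 and Kcnmb4, −0.84 for Kcnn1, −0.72 for Kcnj6 and −0.69 for Kcnj3, while in experiment 1 these lay between −0.45 and −0.09. Other channel genes moved with the share in experiment 1, with r = −0.87 (rho −0.78) for Kcnma1 and −0.74 (rho −0.56) for Kcnn3. Their r in experiment 2 was 0.29 and −0.36. The parts of cortical tissue and of this share in these differences were not tested.

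**Figure D4:**
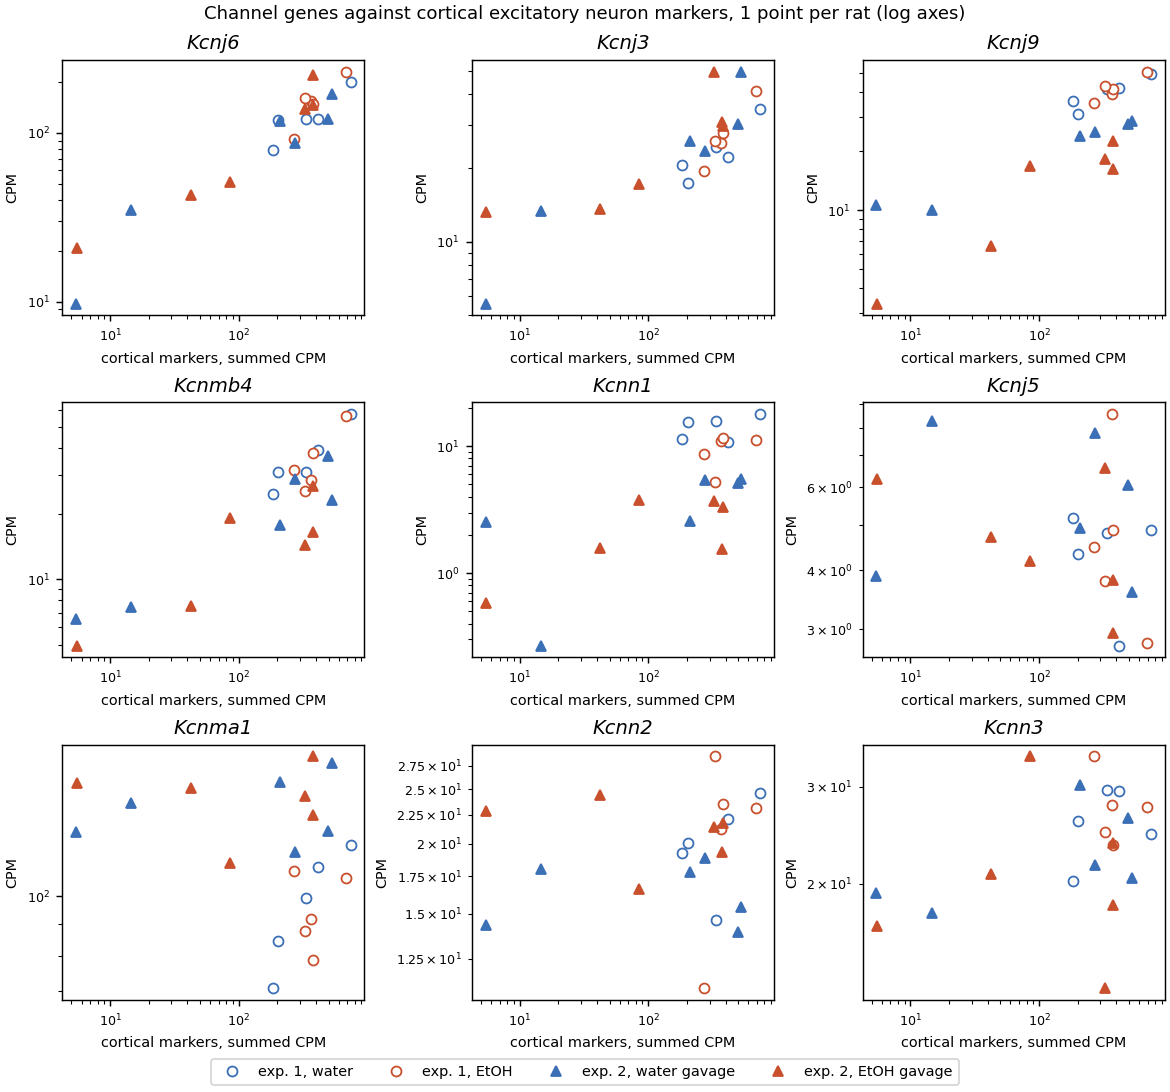
CPM of each channel gene (vertical) against the summed CPM of 4 cortical excitatory neuron markers (horizontal), both on log axes, with 1 point per rat. Open circles are experiment 1, triangles experiment 2, blue water or water gavage, and red EtOH or EtOH gavage. Kcnj6, Kcnj3, Kcnj9 and Kcnmb4 climb with the markers, and Kcnj5, Kcnma1, Kcnn2 and Kcnn3 do not do so in experiment 2. Kcnn1 lies between, with r of 0.40 in experiment 1 and 0.71 in experiment 2 after removal of group means.

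With the cortical marker score as a covariate, chosen after seeing the data, the intervals of the co-varying genes narrowed while no gene passed the FDR. The score includes Cux2, which has the lowest P-value that the paper lists for experiment 1. The score is therefore not independent of the group comparison there. The log2 fold change of Kcnj6 became 0.17 (SE 0.12) in experiment 1 and 0.26 (SE 0.21) in experiment 2. For Kcnj9 in experiment 2 it became −0.63 (SE 0.21, edgeR FDR 0.393), in an analysis in which 854 of the 8655 genes had a P-value under 0.05. Kcnn1 in experiment 1 was at −0.64 (edgeR FDR 0.708) and Kcnn2 in experiment 2 at 0.36 (edgeR FDR 0.393).

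In experiment 2 the GIRK subunits did not keep a fixed proportion to each other among rats. Whether the spread of the ratios in experiment 1 exceeded counting noise was not tested. The log2 ratio of Kcnj6 to Kcnj3 had a mean of 2.40 ± 0.31 with water and 2.48 ± 0.16 with EtOH in experiment 1 (SD, n = 5 each). After gavage it was 1.67 ± 0.50 with water and 1.75 ± 0.76 with EtOH (SD, n = 6 each). For Kcnj6 to Kcnj9 in experiment 2 it was 1.74 ± 0.96 after water gavage and 2.72 ± 0.61 after EtOH gavage (SD, n = 6 each), and the groups overlapped, with ranges of −0.12 to 2.56 and 1.59 to 3.28. These ratios cancel library scaling and were given no test. Libraries of the 2 experiments differ in strandedness and read length, so the ratios are not comparable between experiments.

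Promoters of the genes that varied together are shown so that their sequences can be compared. The RefSeq table of promoters (GRCr8, 250 bases before to 50 bases after the start) held 7 of the 9 genes, and among the 4 co-varying genes it held Kcnj6 (chr11:47778299-47778598, minus strand), Kcnj9 (chr13:87320244-87320543, minus strand) and Kcnmb4 (chr7:54005052-54005351, minus strand). Each is written 5′ to 3′, and capitals mark the GC box GGGCGG on either strand.
Kcnj6: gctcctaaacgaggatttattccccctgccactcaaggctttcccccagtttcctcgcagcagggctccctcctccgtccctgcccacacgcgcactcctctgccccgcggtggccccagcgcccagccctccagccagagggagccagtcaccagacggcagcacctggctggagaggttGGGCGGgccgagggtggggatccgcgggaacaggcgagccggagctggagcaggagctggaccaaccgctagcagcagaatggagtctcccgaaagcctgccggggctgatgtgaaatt
Kcnj9: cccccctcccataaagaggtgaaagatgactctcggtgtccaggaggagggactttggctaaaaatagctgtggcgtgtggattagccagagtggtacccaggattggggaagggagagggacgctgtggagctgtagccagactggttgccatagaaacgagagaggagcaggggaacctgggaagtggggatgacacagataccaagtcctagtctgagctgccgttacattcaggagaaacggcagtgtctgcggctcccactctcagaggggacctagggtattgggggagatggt
Kcnmb4: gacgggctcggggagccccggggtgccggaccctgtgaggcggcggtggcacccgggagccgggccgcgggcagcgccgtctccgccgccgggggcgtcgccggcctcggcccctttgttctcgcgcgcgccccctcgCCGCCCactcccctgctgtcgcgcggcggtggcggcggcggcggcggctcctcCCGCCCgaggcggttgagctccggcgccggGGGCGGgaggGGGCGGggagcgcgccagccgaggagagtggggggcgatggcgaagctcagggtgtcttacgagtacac

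The 3 promoters did not share a motif among those searched. The GC box, a site of Sp1 family factors, occurred 1 time in Kcnj6, 0 times in Kcnj9 and 4 times in Kcnmb4, and 33.1% of all 33469 promoters in the table held it. None held the E-box CACGTG (6.42% of all promoters), the cAMP response element TGACGTCA (1.83%), its core TGACG (21.2%), which overlaps it, or TATAAA (14.2%). The letters CAGCACC, the left part of the element bound by the neuronal repressor REST, occurred 1 time in Kcnj6 and in neither of the others, against 6.78% of all promoters. GC content was 66.7%, 56% and 80.7%, where the median of all promoters was 51.7%. Kcnma1, which did not vary with them in experiment 2, had 5 GC boxes and 78.3% GC.

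By likeness, the 3 genes whose pattern over rats came closest to Kcnj6 were Gabbr2, which encodes a subunit of the GABA-B receptor that opens GIRK channels, Stmn2, which encodes a neuronal microtubule regulator, and Rimbp2, which encodes a presynaptic scaffold. Pearson's r of deviations from group means was 0.95 and 0.96 for Gabbr2, 0.96 and 0.92 for Stmn2, and 0.92 and 0.94 for Rimbp2 in the 2 experiments, over 10 and 12 rats and among 8175 genes tested in both. By the lower of the 2 coefficients, Kcnj3 ranked 47th, Kcnj9 109th and Kcnmb4 144th. For Kcnma1 the nearest were Aak1 (0.89 and 0.93), Tenm3 (0.88 and 0.85) and Napb (0.86 and 0.84). Kcnn3 had Me3 (0.88 and 0.84) and Supt6h (0.82 and 0.81) among its nearest genes.

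The Gi/o-coupled receptors upstream of GIRK channels held no gene past the FDR. Of 21 receptors, 13 were tested in experiment 1, with a median log2 fold change of 0.06 against −0.00118 over all tested genes, and 2 had an unadjusted P-value under 0.05. Chrm4, the M4 muscarinic receptor of striatal projection neurons, measured 112 ± 23.6 CPM with water and 76.6 ± 9.13 CPM with EtOH (SD, n = 5 each), a log2 fold change of −0.54 (SE 0.13, edgeR FDR 0.536). Npy1r, a neuropeptide Y receptor, measured 24.6 ± 5.17 and 18.9 ± 2.60 CPM (SD, n = 5 each), with −0.36 (SE 0.15, edgeR FDR 0.866). In experiment 2, 15 were tested with a median of −0.16 against 0.000885 over all tested genes, and Oprk1, the kappa opioid receptor, alone had a P-value under 0.05. It measured 20.8 ± 6.21 CPM after water gavage and 32.1 ± 13.6 CPM after EtOH gavage (SD, n = 6 each), a log2 fold change of 0.62 (SE 0.29, edgeR FDR 0.675).

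Among the G protein subunits and the RGS proteins that end their signal, 20 were tested in each experiment and 0 passed the FDR with edgeR. Rgs10 was at 49.2 ± 6.51 CPM with water and 60.9 ± 6.59 CPM with EtOH in experiment 1 (SD, n = 5 each), with a log2 fold change of 0.31 (SE 0.10, edgeR FDR 0.823). No other gene of this list had an unadjusted P-value under 0.05 in either experiment. The medians of the list were −0.00496 and −0.14.

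Channel partners, calcium sources and other potassium channels held 0 genes past the FDR as well. Among the partners and remaining BK and SK subunits, such as the calmodulins and Snx27, 7 of 16 were tested in each experiment and none had an unadjusted P-value under 0.05, with medians of 0.00865 and 0.08. Of the calcium channels, NMDA receptor subunits and calcium release channels that feed BK and SK channels, 15 and 14 were tested. The T-type channel gene Cacna1h alone passed the unadjusted level, in experiment 1, at 246 ± 31.2 and 198 ± 6.24 CPM (SD, n = 5 each), with a log2 fold change of −0.31 (SE 0.08, edgeR FDR 0.541). Of 29 other potassium channel genes tested in experiment 1, 24 were lower with EtOH by fold change, with a median of −0.10 against −0.00118 over all tested genes. Kcnt1 (−0.25), Kcnc1 (−0.29) and Kcnj4 (−0.24) had an unadjusted edgeR P-value under 0.05, with FDR values of 0.823, 0.823 and 0.866. The striatal projection neuron markers moved the same way in this comparison, with 1 of 9 higher, a median log2 fold change of −0.25 and median sums of 4172 CPM with water and 3403 CPM with EtOH, in overlapping ranges. Their part in the values of these channels, Chrm4 and Cacna1h was not tested. In experiment 2, 18 of 30 were lower, with a median of −0.10, and 0 had an unadjusted edgeR P-value under 0.05.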

How the data were processed

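PolyA+ RNA from the NAc of 22 rats was sequenced, without strand information in experiment 1 and with it in experiment 2. The authors aligned reads to rn6 with TopHat2 (version 2.0.13 in the submitters' processing notes), counted reads per gene with htseq-count and deposited the raw counts. The htseq-count options and annotation release are not given in the sources used here. Reads placed at several sites are not in the counts.

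The experiments were each fitted alone with the quasi-likelihood F test of edgeR 4.0.16 (R 4.3.3, TMM, default settings), over the 50% of listed genes with the highest base mean, with Benjamini-Hochberg adjustment over all tested genes. The SE was derived from the fold change and F. Genes under the filter were read from a fit without it. Log2 CPM used a prior count of 2. Exact permutation tests were two-sided over rats and were not adjusted. DESeq2 1.42.0, other scaling, filters, covariates, a replicate block and leave-one-out fits were the alternatives. Fits were tested on simulated counts.

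The members and gene lists were chosen with earlier results of these data known. All 9 channel genes were named. Genes of other lists were named at an unadjusted P-value under 0.05, at most 4 per list and experiment, and the 3 most alike genes were named for the member of each family with the highest base mean in experiment 1. Some genes that these rules and lists include are not reported here and were left out of the marker sums and list counts. Libraries came from separate rats, so P-values measure the spread among rats. No pair of libraries within a group agreed within sampling noise (chi-square per degree of freedom at least 2.99 over 50 pairs).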

Additional observations from a re-analysis of the deposited data

Results flagged for a closer look

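The summed CPM of the 4 cortical excitatory neuron markers in the EtOH group of experiment 1 held 1 rat far from the others. Replicate 3 had 688 CPM, while the other 4 rats had 269 to 379 CPM, and the gap to the nearest rat was 0.738 of the range of the group, above Dixon's 95% critical value. The same rat had the highest Kcnj6, Kcnj3, Kcnj9 and Kcnmb4 of its group. Of 52 group values examined, this was the only one so marked, where chance marks about 1 in 20, or 2.6 here. Without this rat the log2 fold change in experiment 1 was 0.11 for Kcnj6, 0.022 for Kcnj3, −0.018 for Kcnj9 and −0.26 for Kcnmb4.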

How the results depend on the processing

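The count of genes with an FDR under 0.05 was 0 in both experiments, over all genes and among the channel genes, under every alternative run, each rat left out included. The lowest FDR over these alternatives ranged from 0.0740 (DESeq2) to 0.999964 in experiment 1 and from 0.393 to 0.999906 in experiment 2, and the number of genes with an unadjusted P-value under 0.05 from 79 to 820 and from 28 to 916, against 483 and 115 in the fits reported above. Of 363 values of channel genes under the alternatives, 337 had the same direction and stayed on the same side of the FDR threshold, and 26 changed direction. With the share of reads outside genes as a covariate, the log2 fold change turned to 0.00176 for Kcnmb4 in experiment 1, and in experiment 2 to 0.00511 for Kcnj9, 0.40 for Kcnmb4, 0.28 for Kcnn1 and 0.038 for Kcnn3. With each rat left out in turn, those that turned ranged, in experiment 1, from −0.17 to 0.26 for Kcnj5, −0.018 to 0.16 for Kcnj9, −0.13 to 0.054 for Kcnma1, −0.26 to 0.20 for Kcnmb4, −0.024 to 0.26 for Kcnn2 and −0.011 to 0.14 for Kcnn3, and in experiment 2, from −0.24 to 0.38 for Kcnj3, −0.17 to 0.48 for Kcnj6 and −0.29 to 0.0046 for Kcnn3. None of these genes had passed the FDR, and the cause was not tested. Kcnn1 in experiment 1 and Kcnn2 in experiment 2 had the same direction under all alternatives, from −0.68 to −0.45 and from 0.27 to 0.42, but not always an unadjusted P-value under 0.05.

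With the replicate number as a replicate block, 0 genes passed the FDR (lowest 0.128 and 0.529), with 476 and 414 genes at an unadjusted P-value under 0.05, and Kcnn2 in experiment 2 had an unadjusted P-value of 0.0619. Rats with the same number did not deviate together in a way that pairs them, since their correlations ran from −0.13 to 0.14 in experiment 1 and from −0.76 to 0.84 in experiment 2, and 2 of 10 and 1 of 12 rats correlated best with their own number. The alternatives chosen after seeing the data were the cortical marker score as a covariate and experiment 2 without the 4 rats with the highest share of reads outside genes. Few reads limited Kcnj5 in both experiments and Kcnn1 in experiment 2, although the libraries of experiment 2 were the deeper ones, and the wide spread among rats limited Kcnj3, Kcnj6, Kcnj9 and Kcnmb4 in experiment 2.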

Other observations

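Other cell type markers also differed among rats together with Kcnj6 in experiment 2. After removal of group means, the log2 of the summed CPM had r = 0.88 (rho 0.88) with Kcnj6 for the GABA interneuron markers (Pvalb, Sst, Npy and Vip), which summed to 18.2 to 78.8 CPM, with Npy at 0 reads in every rat. For the cholinergic interneuron markers (Chat, Slc5a7 and Slc18a3) r was −0.84 (rho −0.86), and for the dopamine neuron markers (Th, Slc6a3 and Slc18a2) it was −0.83 (rho −0.81), at 114 to 282 and 18.9 to 52.3 CPM. The latter sum was nearly all Slc18a2 (17.1 to 52.2 CPM), since Th had at most 13 reads and Slc6a3 at most 2 per rat. In experiment 1 the coefficients were 0.26, −0.71 and 0.39. They describe 12 and 10 rats that share libraries and scaling.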
